A study of Homo sapiens with 3 samples.

Results

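The G1 regulators examined here are 10 genes that govern entry into the cell cycle: the D-type cyclins CCND1, CCND2 and CCND3, their kinases CDK4 and CDK6, and the CDK inhibitors CDKN1A, CDKN1B, CDKN2A, CDKN2B and CDKN2C. They were taken from a fixed gene list, with every probe that the platform annotation assigns to them. The annotation used here assigns 13 probes to 9 of the 10 genes and 0 to CDKN2C, which therefore has no value. All 9 genes had a probe above background, out of 8270 genes so measured among 16922 named on the array.

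The study used RWPE1, a non-tumour human prostate epithelial cell line, and compared it after retroviral infection with the empty vector PMN, with MYC for overexpression, or with a constitutively active PI3K carrying the E545K change. All 3 lines were kept in the same keratinocyte serum-free medium with bovine pituitary extract and EGF, and had no treatment before harvest. Total RNA of each was read on 1 Illumina bead array, so each group has 1 sample and no difference below has a replicate check or a test. The labels do not say whether the lines are clones or pools, nor which promoter drives the inserts. RWPE1 was immortalised with HPV-18, a background that all 3 lines share.

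In G1, a D-type cyclin binds CDK4 or CDK6, and the pair phosphorylates the retinoblastoma protein RB, which releases E2F factors to switch on S-phase genes. INK4 inhibitors (CDKN2A, CDKN2B, CDKN2C) bind CDK4 and CDK6 directly, while the CIP/KIP inhibitors CDKN1A (p21) and CDKN1B (p27) act mainly on cyclin-CDK2 complexes. The HPV protein E7 binds RB and its relatives and leads to RB loss, and E6 leads to loss of p53, the main inducer of CDKN1A. Cells with E7 typically hold much p16, the INK4 product of CDKN2A, since RB normally restrains it.

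Expression was read as signal intensity, and the levels below are on the vector array's scale: the vector signal as deposited, and for the other arrays that signal multiplied by the fold between the authors' log2 values. A log2 difference is the difference between 2 arrays in the authors' log2 values, where 1 is 2-fold. A level is compared only within a probe, because probes bind with different strength. The only error available is technical: over 719 genes with several probes above background on all arrays, the spread between probes of a gene gave an SD of 0.21 for both differences from the vector and 0.18 for the difference between the MYC-labelled array and the PI3K array. It leaves out the spread between cultures, RNA preparations and hybridisations.

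The arrays were checked first. MYC is read by 1 probe, with a level of 6229 on the vector array, 5229 on the MYC-labelled array and 3520 on the PI3K array. The probe was not higher on the MYC-labelled array (log2 difference -0.25). Where the probe lies relative to the insert is not known here, so the array is called by its label. PIK3CA is named for 0 probes. All 5 basal epithelial markers with a probe were above background on at least 1 array, as were all 5 general epithelial markers (KRT18 on the MYC-labelled array alone). Among markers of other cells, 1 of 8 fibroblast genes (VIM) and 0 of 4 endothelial genes were above background. VIM differed from the vector by 0.61 on the MYC-labelled array and 0.09 on the PI3K array. Of 4 leukocyte genes with a probe, CD68 was above background on all 3 arrays and CD14 on the vector array, while the defining PTPRC and CD3E were not. Of 3 neuroendocrine genes, ENO2 was above background on the PI3K array. The luminal genes KLK2, KLK3 and TMPRSS2 were not above background either. The basal markers differed from the vector by a median of -1.66 on the MYC-labelled array and -0.56 on the PI3K array. On the MYC-labelled array the log2 differences ran from -3.75 for KRT15, which was not above background there, through KRT14 (-1.98), KRT5 (-1.66) and ITGB4 (-0.23) to 0.25 for ITGA6. On the PI3K array they were -2.25 for KRT15, -0.85 for KRT14 and -0.56 for KRT5, but 0.72 for ITGB4 and 0.99 for ITGA6. The general epithelial markers also differed. On the MYC-labelled array and then the PI3K array, the values were -2.58 and -0.85 for KRT19 and -0.90 and -0.10 for KRT8. They were -0.45 and -0.30 for CDH1, and 1.04 and 0.79 for EPCAM. KRT18 differed by 1.03 on the MYC-labelled array. The part of these marker differences in the results below was not tested.

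Upstream sequence is shown for CDK4, CDKN2B and CDKN2A only. The windows of other members, CCND3 and CDKN1A among them, are not printed. CDK4 was not picked for its difference between arrays. CDK4 is a textbook MYC target, whose window was searched for the canonical E-box letters. CDKN2B was the one member at least 2-fold from the vector, and CDKN2A is its neighbour with separate starts for ARF and p16. Each run is the 250 bases before a RefSeq start (GRCh38.p14), printed 5′ to 3′ on the gene's own strand, the minus strand in every case. Capitals mark the E-box CACGTG in CDK4 and the GC box GGGCGG (or its reverse complement) in the others.
CDK4, chr12:57752311-57752560: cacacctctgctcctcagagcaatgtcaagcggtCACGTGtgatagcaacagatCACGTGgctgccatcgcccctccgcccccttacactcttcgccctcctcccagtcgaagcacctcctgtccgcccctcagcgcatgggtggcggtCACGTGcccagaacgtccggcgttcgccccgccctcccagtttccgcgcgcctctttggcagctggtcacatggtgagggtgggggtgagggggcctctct
CDKN2B, chr9:22009306-22009555: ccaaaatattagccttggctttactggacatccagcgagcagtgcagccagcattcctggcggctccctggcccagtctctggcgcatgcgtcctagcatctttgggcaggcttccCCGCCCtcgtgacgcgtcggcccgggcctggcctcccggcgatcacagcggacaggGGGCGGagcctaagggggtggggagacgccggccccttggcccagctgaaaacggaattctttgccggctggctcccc
CDKN2A, upstream start, chr9:21995325-21995574: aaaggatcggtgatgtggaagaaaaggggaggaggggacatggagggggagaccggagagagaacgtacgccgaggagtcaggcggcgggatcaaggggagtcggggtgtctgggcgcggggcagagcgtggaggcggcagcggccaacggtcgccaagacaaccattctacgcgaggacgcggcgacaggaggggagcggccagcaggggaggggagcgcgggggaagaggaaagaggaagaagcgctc
CDKN2A, downstream start, chr9:21974858-21975107: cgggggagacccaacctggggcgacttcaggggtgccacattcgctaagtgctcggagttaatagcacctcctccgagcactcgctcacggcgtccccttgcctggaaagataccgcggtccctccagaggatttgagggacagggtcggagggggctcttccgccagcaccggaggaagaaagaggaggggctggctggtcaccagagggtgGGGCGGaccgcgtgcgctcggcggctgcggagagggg

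The CDK4 window held the E-box CACGTG 3 times, beginning 216, 196 and 101 bases before the start. Of 35116 promoter windows of the same length, 6.34% held it at least once and 28 held it 3 or more times. Among the 14 windows of the 8 members with an entry, CACGTG was otherwise found in 2 of CDKN2C. The GC box was found in the CDKN2B window 2 times, at 134 and 78 bases before the start. In the downstream CDKN2A window it was found 1 time, and in the upstream one 0 times. It also occurred in the CDK4 window (3 times, not marked above) and in windows of CDK6, CCND3, CDKN1A, CDKN1B and CDKN2C. Each of the 8 members with an entry thus held it in at least 1 window. CDKN2C, CCND3, CDK6 and CDKN2A also have a window without it. Of all windows, 42.6% hold it, which is a share per window and not per gene. The forkhead letters GTAAACA (2.98% of all windows) and the E2F letters TTTGGCGC, TTTCCCGC, TTTCGCGC or TTTGCCGC (2.79%) were found in 0 of the 14 windows. Both strands were searched, and matches could overlap. A match describes these letters only. CCND1 and CCND2 have no entry.

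D-type cyclins, which activate CDK4 and CDK6, differed from each other in pattern. CCND3 read 5022 on the vector array, 2758 on the MYC-labelled array and 5699 on the PI3K array. The MYC-labelled array is the low one, by -0.86 against the vector and by -1.05 (2.07-fold) against the PI3K array, which are 4.09 and 5.71 times the technical SD. Against the vector, 5.94% of all genes were lower than CCND3, and against the PI3K array 2.32%. The PI3K array and the vector array were 0.18 apart, within the technical SD.

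CCND2 read 6725 on the vector array, 9661 on the MYC-labelled array and 11029 on the PI3K array. The MYC-labelled and PI3K arrays both lay above the vector, by 0.52 and 0.71, and 4.92% of all genes were higher than CCND2 in the second comparison. They differed from each other by -0.19, near the technical SD. CCND1, the cyclin D gene most often raised in epithelial tumours, read 7306, 7247 and 5925 in the same order. Its MYC-labelled array and vector values were -0.01 apart, and the PI3K array was lower by -0.30, or 1.44 times the technical SD.

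The kinases differed little between arrays. CDK4 read 4131 on the vector array, 4945 on the MYC-labelled array and 4237 on the PI3K array, with differences from the vector of 0.26 and 0.04. The first is 1.23 times the technical SD, and 32.5% of all genes were higher. CDK6 read 1737, 1691 and 1638, with differences from the vector of -0.04 and -0.08, both within the technical SD. Among the members, CDK6 had the smallest range over the 3 arrays.

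**Figure D1:**
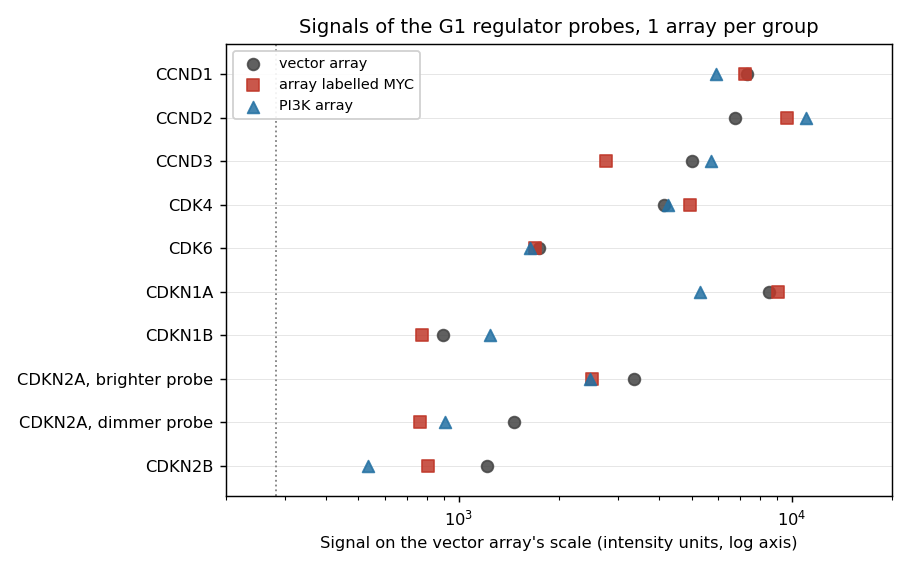
Signal of each member probe above background (rows) on the vector array's scale in intensity units, on a log axis, with 1 point per array and no replicates. The dotted line is the cut-off of 283.7 used for the PI3K array. CDK4 and CDK6 points lie close together, CCND3 is lowest on the MYC-labelled array, and CDKN2B, from 1216 to 532.4, is lowest on the PI3K array.

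Both measured INK4 members were lower on the MYC-labelled and PI3K arrays than on the vector array. CDKN2B encodes p15, a CDK4 and CDK6 inhibitor that TGF-beta induces in epithelium. Its brighter probe read 1216 on the vector array, 809.3 on the MYC-labelled array and 532.4 on the PI3K array. The vector array is highest and the PI3K array lowest, with a difference of -1.19 (2.28-fold), 5.66 times the technical SD. The MYC-labelled array lay between them, -0.59 from the vector and 0.60 above the PI3K array. A second CDKN2B probe read 108.2, 140.8 and 106.4 and was not above background on any array, so it gives no direction.

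CDKN2A encodes p16 and, from its other start and reading frame, ARF, which stabilises p53. Its brightest probe read 3359 on the vector array, 2504 on the MYC-labelled array and 2481 on the PI3K array. The vector array is the high one, with differences of -0.42 and -0.44, the larger 2.08 times the technical SD, and the other two arrays were 0.01 apart. A second probe, annotated to the ARF transcript, read 1468, 764.8 and 910.1. It differed from the vector by -0.94 on the MYC-labelled array and by -0.69 on the PI3K array, so it was lower than the vector on both, by more than the brightest probe. The order of those arrays differs between the probes, since this one is lowest on the MYC-labelled array. Whether it reads ARF alone, or exons shared with p16, is not known here. The brightest probe is annotated to a different CDKN2A transcript, and which transcripts it reads is not known either. Another CDKN2A probe read 160.4, 187.6 and 173.5, not above background on any array. Both comparisons share the vector array, so its own deviation would enter both.

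The CIP/KIP genes differed in pattern. CDKN1A, or p21, read 8537 on the vector array, 9053 on the MYC-labelled array and 5305 on the PI3K array. The PI3K array is the low one, by -0.69 against the vector (1.61-fold, 3.26 times the technical SD), while the MYC-labelled array was 0.08 from the vector, within it. The MYC-labelled array was 0.77 above the PI3K array, and 4.86% of all genes were higher than CDKN1A there. A second CDKN1A probe read 132.0, 169.1 and 154.2 and was not above background on any array. MYC is known to repress CDKN1A together with its partner ZBTB17 (MIZ1), whose log2 differences from the vector were -0.05 and -0.31.

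CDKN1B, or p27, read 898.7 on the vector array, 773.7 on the MYC-labelled array and 1243 on the PI3K array. The PI3K array is the high one, 0.47 above the vector, or 2.22 times the technical SD. The MYC-labelled array was -0.22 from the vector and -0.68 from the PI3K array, 3.73 times the technical SD for that pair. FOXO factors, which PI3K signalling through AKT holds out of the nucleus, are known to activate CDKN1B. The log2 difference from the vector on the PI3K array was -0.58 for FOXO1 and 0.09 for FOXO3.

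**Figure D2:**
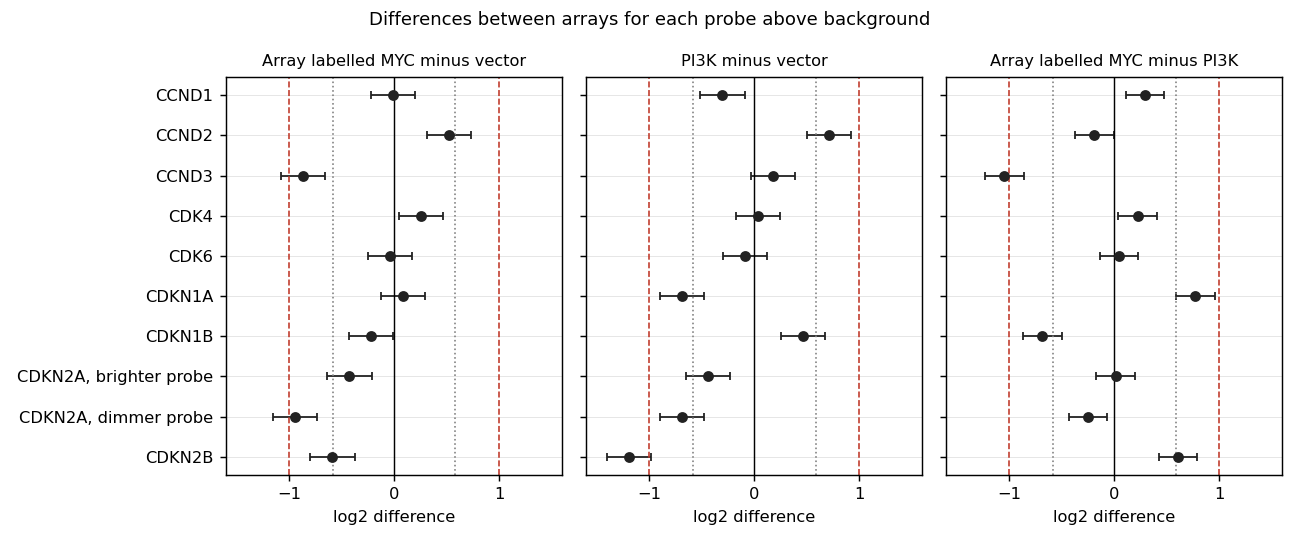
Log2 difference between 2 arrays for each member probe above background, in 3 comparisons. Points are single values, bars are 1 technical SD (0.21, 0.21 and 0.18), dashed lines mark 2-fold and dotted lines 1.5-fold. CDKN2B passes 2-fold in the PI3K comparison at -1.19 and CCND3 in the third at -1.05.

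Counted over all members, few stood 2-fold apart. On the MYC-labelled array, 0 of 9 members were at least 2-fold from the vector, beside 7.08% of 8147 genes (2.31% higher and 4.77% lower). At 1.5-fold there were 2 of 9, CCND3 and CDKN2B, beside 21.3% of all genes, and CDKN2B at -0.59 lies just past that threshold of 0.58 (CCND2, at 0.52, lies just short of it). On the PI3K array, 1 of 9 was at least 2-fold from the vector, CDKN2B, beside 5.25% of 8136 genes (1.2% higher and 4.04% lower). At 1.5-fold there were 3 of 9, CCND2, CDKN1A and CDKN2B, beside 18.3%. Between the MYC-labelled array and the PI3K array, 1 of 9 passed 2-fold, CCND3, beside 4.92% of 7804 genes (2.29% higher and 2.63% lower). At 1.5-fold there were 4 of 9, CCND3, CDKN1A, CDKN1B and CDKN2B, beside 17.3%. With 9 members, counts of 0 or 1 are near these shares at 2-fold. At 1.5-fold, 2 of 9 was near its share, while 3 of 9 and 4 of 9 were above theirs, which was not tested. The members' median log2 differences were -0.04, -0.08 and 0.05 in the same order, beside 0.07, 0.05 and 0.01 over all genes.

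**Figure D3:**
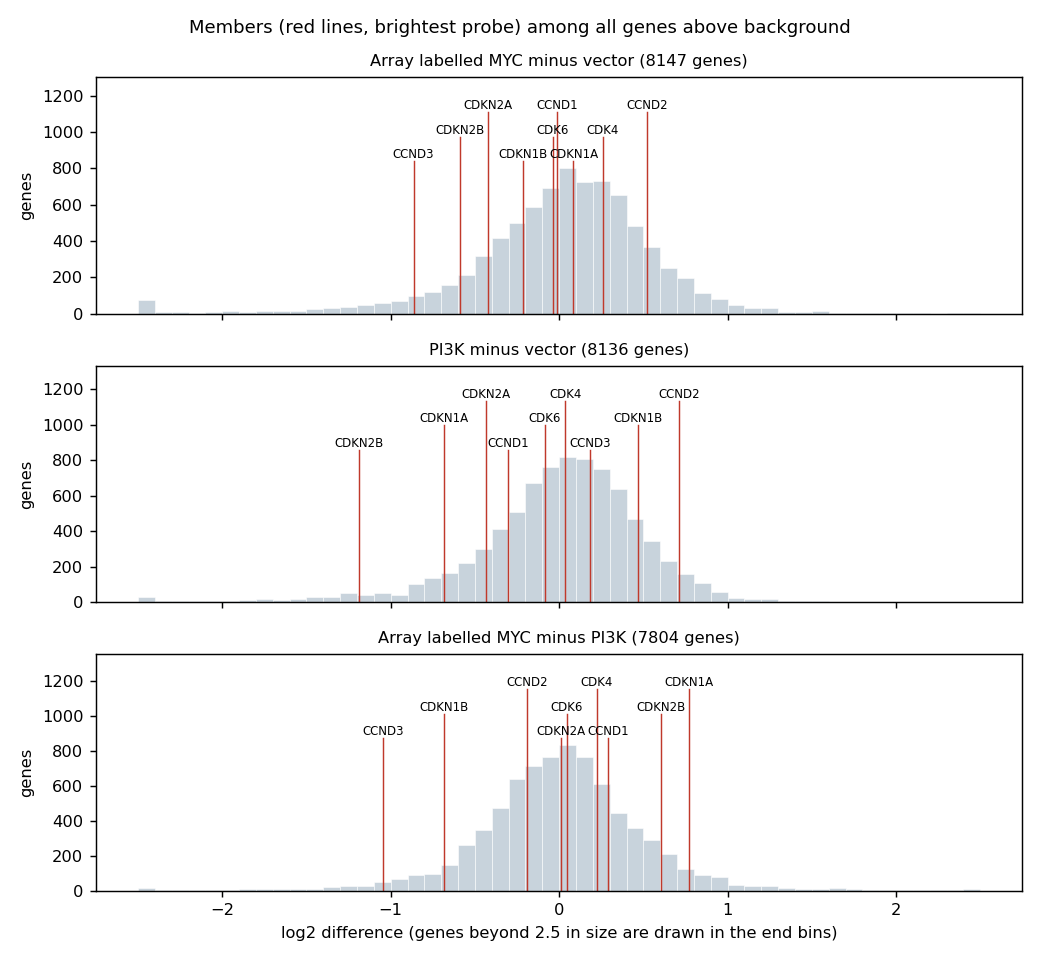
Number of genes (y axis) by log2 difference between 2 arrays (x axis) for all genes above background on at least 1 of the pair, with the 9 members as red lines at their brightest probe. Most members lie in the body of each distribution. CDKN2B at -1.19 in the second panel and CCND3 at -1.05 in the third lie toward the lower edge.

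The other genes of the pathway were read from lists chosen with earlier results of these data known. Where a gene has a pair of values, they are its log2 differences from the vector on the MYC-labelled array and then on the PI3K array. The list of cyclin E, cyclin A, their kinases and CDC25 phosphatases had 8 measured genes. Its median was -0.42 on the MYC-labelled array (5 of 8 below 0) and 0.31 on the PI3K array (6 of 8 above 0). The medians over all genes were 0.07 and 0.05. On the MYC-labelled array, 1 gene was at least 2-fold higher and 0 lower, beside 2.31% and 4.77% of all genes. That gene is CCNE1, the cyclin E that drives CDK2, with levels of 250.7, 669.8 and 475.4 and a difference of 1.42. Its vector level is close to the vector array's cut-off of 233.3 and below the 283.7 used for the PI3K array. CCNE1 was 0.92 above the vector on the PI3K array, where 0 of 8 passed 2-fold. CDC25C, the phosphatase that activates CDK1, differed by -0.67 and 0.55, and CCNA2, the S-phase cyclin A, -0.39 and 0.67. The MYC-labelled array was at least 2-fold below the PI3K array for these last 2 genes, at -1.22 and -1.06. The other CDC25C probes gave -1.01 and -0.64 there, neither above background on the MYC-labelled array. Of the CDK-activating kinase genes, CDK7 differed by 0.64 and -0.03, and its partners CCNH (0.10 and 0.22) and MNAT1 (-0.05 and -0.16) were near 0.

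Of the CDK inhibitors outside the member list, CDKN3, a phosphatase that acts on CDKs, differed by -0.99 on the MYC-labelled array and 0.09 on the PI3K array. CDKN2D, the fourth INK4 gene, read 320.9 on the vector array and was not above background on the MYC-labelled array; it differed by -0.10 on the PI3K array. CDKN1C was not above background. Among the RB, E2F and DP factors, 9 of 13 were measured, with medians of 0.29 and 0.35. E2F5 was the 1 gene at least 2-fold higher on the MYC-labelled array, at 1.25, and differed by 0.29 on the PI3K array. E2F7, a repressor that E2F itself induces, differed by 0.64 and 0.56. E2F2, an activator, differed by 0.60 on the PI3K array and was not above background on the MYC-labelled array. RB1, RBL1, E2F1 and E2F8 were not above background, and of the pocket proteins RBL2 was measured, at 0.35 and 0.37. Of the genes around HPV E6 and E7, 3 of 9 were measured, and the E6 partner UBE3A differed by 0.29 and 0.41 and SCRIB, a polarity protein that E6 targets, 0.05 and -0.15. Another SCRIB probe, above background on all arrays, gave 0.44 and 0.29, so the PI3K direction differs between its probes.

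E2F-driven S-phase genes sat at the level of all genes on the MYC-labelled array, with a median of 0.06 over 27 genes and 0 past 2-fold. On the PI3K array their median was 0.37, with 22 of 28 above 0 and 0 past 2-fold. The DNA polymerase subunit POLE differed by 0.52 and 0.80, the dUTPase DUT -0.14 and 0.78, and the thymidine kinase TK1 -0.96 and 0.39. Another DUT probe gave -0.15 on the PI3K array, where it was not above background. A list of 25 mitosis genes, a readout of cycling cells, had medians of -0.51 (23 of 24 below 0) and 0.40 (24 of 25 above 0), beside 0.07 and 0.05 over all genes, with KIF20A at -1.26 on the MYC-labelled array and KIF11 at 0.94 on the PI3K array. CDC20, an activator of the anaphase-promoting complex, differed by -0.91 and 0.10. MKI67 passed 2-fold on the PI3K array, at 1.01, but was not above background on the vector array. Between the MYC-labelled array and the PI3K array, 13 of the 25 were at least 2-fold lower, beside 2.63% of 7804 genes. The count was 12 with signals below background set to their bound. Of the S-phase genes, 2 of 28 were at least 2-fold lower in that comparison, or 1 with signals below background set to their bound. CCND3 was lower by -1.05 there. What part the share of cycling cells has in any member's value was not tested. In bulk RNA, fewer cells of a kind and less RNA per cell cannot be told apart.

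**Figure D4:**
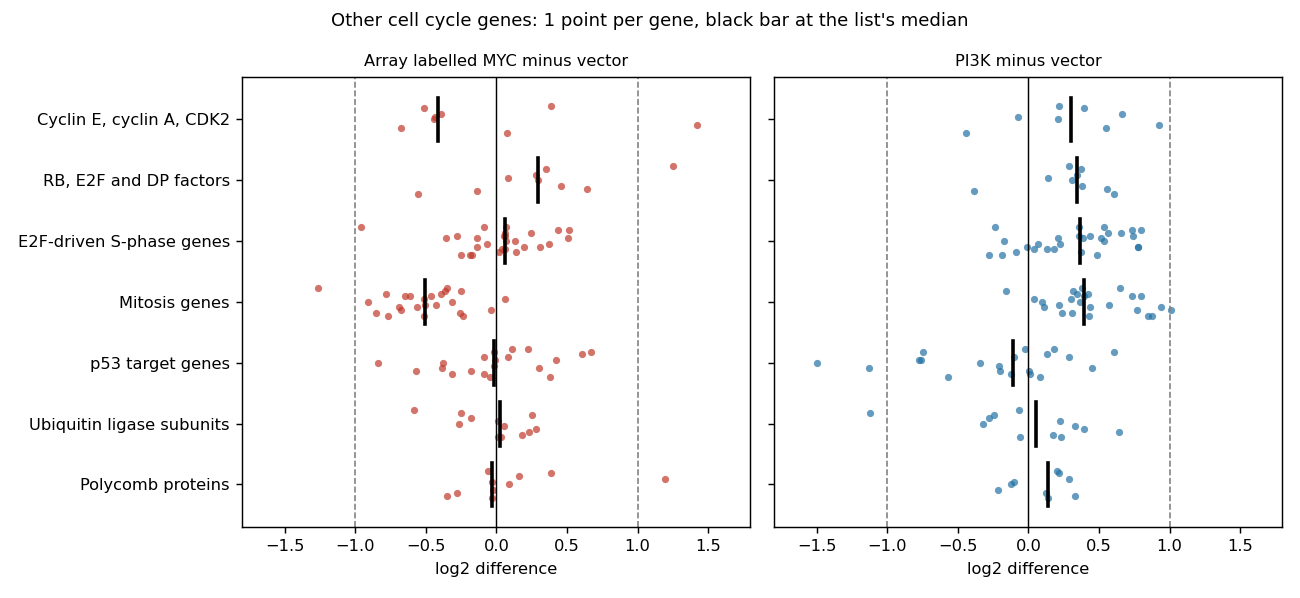
Log2 difference from the vector for genes of 7 lists (rows), on the MYC-labelled array (left) and the PI3K array (right), with 1 point per gene, a black bar at the list's median and dashed lines at 2-fold. The mitosis medians lie at -0.51 and 0.40, while those of the p53 targets, at -0.02 and -0.11, are near 0.

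CDKN1A was set beside other p53 targets. Of 20 measured, 0 were at least 2-fold from the vector on the MYC-labelled array by their brightest probe, and the median was -0.02. A second BAX probe, not above background on the vector array, differed by 1.36 and 0.86, where the brightest gave -0.09 and -0.10. On the PI3K array the median was -0.11, with 2 of 20 at least 2-fold lower, beside 4.04% of all genes. These were the repair factor XPC at -1.5 and SPATA18 at -1.13, whose PI3K signal was not above background. GADD45A, a growth arrest gene, differed by -0.01 and -0.77, and the death gene PMAIP1 -0.84 and -0.34. At 1.5-fold, 5 of 20 were lower on the PI3K array and 1 was higher, beside 18.3% of all genes apart in either direction. Of the lower ones, TP53INP1 (-0.75), like SPATA18, was not above background there. Of the 20, 12 lay below 0 and 8 above. CCNG1 and PLK3, also p53 targets, were among those above 0, at 0.45 and 0.61. MDM2 was not above background.

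Ubiquitin ligase subunits that turn over cyclins and CDK inhibitors had medians of 0.02 and 0.06 over 12 genes. SKP2 and CKS1B, which target p27, differed by 0.01 and 0.03 on the MYC-labelled array and 0.23 and -0.06 on the PI3K array. A second SKP2 probe, above background on all arrays, gave 0.29 and 0.38, beyond the technical SD on both. FBXO4, an F-box protein that targets cyclin D1, was the 1 gene past 2-fold, at -1.12 on the PI3K array, and a second FBXO4 probe, not above background there, differed by -0.65. DTL, an adaptor for p21 turnover, differed by 0.23 and 0.64, and CUL4A, a scaffold of its ligase, 0.28 and 0.40. Of 4 other measured cyclins and CDKs, 0 passed 2-fold: the Mediator cyclin CCNC differed by 0.44 and 0.64 (0.45 and 0.24 at a second probe), CCNG2 -0.04 and 0.56, and CCNI 0.48 and 0.08.

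Regulators of cyclin D and CDK inhibitor transcription had a median of -0.20 on the PI3K array, beside 0.05 over all genes. There 5 of 26 passed 2-fold downward and 1 upward, beside 4.04% and 1.2% of all genes. On the MYC-labelled array, FOS (-1.29) and STAT3 (-1.02) passed 2-fold downward and 0 of 25 upward, beside 4.77% and 2.31% of all genes. The median there was -0.16, beside 0.07 over all genes. ID1, an inhibitor of basic helix-loop-helix factors that BMP and TGF-beta signals control, read 6654 on the vector array, 5559 on the MYC-labelled array and 1631 on the PI3K array. The PI3K array is the low one, by -2.03, while the MYC-labelled array was -0.26 from the vector. A second ID1 probe differed by -1.33 on the PI3K array, where it was not above background. ID3, of the same family, differed by 0.18 and -1.42, and KLF4, an epithelial factor that activates CDKN1A, 0.25 and -1.5. KLF6, another activator of CDKN1A, differed by -0.88 and -1.01, ETS2 -0.97 and -1.09, and ETS1, the 1 gene past 2-fold upward, 0.78 and 1.29. ETS factors are known activators of CDKN2A.

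Polycomb proteins, which silence the CDKN2A and CDKN2B locus in many cells, had medians of -0.03 and 0.14, and CBX2 was the 1 gene past 2-fold, at 1.20 on the MYC-labelled array. CBX2 differed by 0.29 on the PI3K array, RING1 -0.35 and -0.12, and SUZ12 0.16 and 0.33. Over the differences from the vector on both arrays, the genes nearest to CDKN2B by Euclidean distance among 6906 compared were TMEM156 (0.02), BCL2L13 (0.03) and AZI2 (0.05). With 3 arrays, 17 genes lay within 1 technical SD of CDKN2B, so nearness describes only these values.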

How the data were processed

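RNA of 3 lines was read on Illumina bead arrays, 1 per line. The authors deposited log2 values for all 3 arrays and, separately, non-normalized signal intensity with detection p-values for the vector and MYC-labelled arrays, made with GenomeStudio per the submitters' processing notes, version not given in the sources used here. The log2 scaling is not described. Compared with the intensities, the log2 differences contained 1 constant of 0.517, which equals log2 of the 75th percentile of one array over that of the other. The deposited detection value was read as 1 minus a p-value, and a probe was above background at p under 0.01. The PI3K array has no detection values under its own label, so a signal rebuilt on the vector scale above 283.7 stood in. A total of 2 columns of per-sample values match no label and were not used. Whether they belong to the PI3K array was not checked.

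Differences were taken between deposited log2 values, and a gene's value is its brightest probe above background. Calls used 2-fold, with 1.5-fold as a second threshold. No test was possible, since each group has 1 array. Of 24526 probes, 21834 had 1 gene symbol, 0 several and 2692 none. In each list of other genes, up to 3 were named by rule, taking the largest absolute difference from the vector where both arrays of the pair were above background. Genes past 2-fold that the rule missed, and ZBTB17, FOXO1, FOXO3, SKP2, CKS1B, CCNG1, PLK3, TP53INP1 and BAX, were chosen after their values were seen. The members and lists were chosen with earlier results of these data known. Alternatives used limma 3.58.1 in R 4.3.3 (normexp with an offset of 50, quantile normalization), median centring and other detection rules. Scripts were tested on simulated data. Array data give no read depth, and the number of arrays limits precision. Sequences are RefSeq's (GRCh38.p14).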

Additional observations from a re-analysis of the deposited data

How the results depend on the processing

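Of 8 alternatives, 3 rescaled the arrays (normexp with quantile normalization, quantile normalization alone, median centring), and the 81 member values under them moved by at most 0.09, less than the technical SD. The 4 alternatives on detection, the PI3K cut-off and dim signals return every member value as it was, since the members' brightest probes are above background under each, so they test the counts over all genes only. A mean over probes can move only CDKN2A, the 1 member with several probes above background, which on the MYC-labelled array became -0.68 against the vector in place of -0.42. The CDKN2A difference between the MYC-labelled array and the PI3K array, 0.01, changed sign in 4 alternatives, to between -0.12 and -0.01 (-0.12, -0.02, -0.02 and -0.01), all within the technical SD. At 1.5-fold in place of 2-fold, 2, 3 and 4 members passed in place of 0, 1 and 1. Setting signals below background to their bound, an alternative chosen after seeing the data, gave 444, 341 and 293 genes past 2-fold over the whole array in place of 577, 427 and 384. No paired analysis was possible because each group has 1 array. For the same reason no array could be left out, and culture, array and insert cannot be told apart.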
